A study of Mus musculus with 6 samples.

Results

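Long-term haematopoietic stem cells (LT-HSC) carrying an internal tandem duplication of Flt3 (Flt3-ITD), with or without a cytoplasmic nucleophosmin mutant (NPMc+), were compared with LT-HSC of MxCRE control mice, to find what both mutant genotypes had in common. The tested genes were the 12657 of 17997 in the deposited table that reached at least 1 CPM (the authors' read count scaled by library size) in at least 2 of the 6 libraries. Among them, 285 genes were shared by the mutants under both criteria used here. A shared gene changed between the mean of the mutant groups and Mx, by limma on log2(CPM + 1) with a Benjamini-Hochberg adjusted p under 0.05. Replicate number was not part of this main fit. In addition, all 4 mutant libraries lay on the same side of both Mx libraries. In what follows, "rose" and "fell" are used of genes that passed this limma test, and log2 changes are those of log2(CPM + 1), mutant mean minus Mx, which understate the change of genes at low levels.

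The NPMc_Flt3ITD group (genotype NPMc+/FLt3-ITD), the Flt3ITD group (genotype Flt3-ITD) and the Mx group (genotype MxCRE, the control named by the series' design text) held 2 biological replicates each. All mice were C57BL/6 and 8 to 11 weeks old, and the libraries were made by SMART-seq from the polyadenylated RNA of small numbers of sorted bone marrow LT-HSC. MxCRE is a Cre recombinase under the interferon-inducible Mx1 promoter. The labels name it for the Mx group alone. The sources used here do not give whether mice were injected to induce it, the sort markers or the number of mice per library. A group with NPMc+ but no duplication was not analysed here, and what NPMc+ adds was measured only on top of Flt3-ITD.

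Flt3 encodes a receptor tyrosine kinase of early haematopoietic progenitors, and the internal tandem duplication makes it signal without its ligand, largely through STAT5 and RAS-ERK. Nucleophosmin is a nucleolar chaperone, and NPMc+ is a leukaemia mutant form of it that is exported to the cytoplasm. LT-HSC are mostly quiescent and are marked by genes such as Procr, Mecom and Hlf, which progenitors lose as they take up myeloid, erythroid or lymphoid programmes.

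Recovered read totals ranged from 15618802 to 37038893 per library. All 8 LT-HSC markers were detected in every library, and their summed level was 1156 and 971 CPM in NPMc_Flt3ITD, 795 and 874 in Flt3ITD, against 1364 and 1453 CPM in Mx. In such bulk samples fewer cells of a type and less RNA per cell cannot be told apart. The summed neutrophil markers (8 genes, S100a8 and S100a9 the most abundant) were high in replicate 2 of both mutants, at 89.5 and 525 CPM in NPMc_Flt3ITD, 17.7 and 631 in Flt3ITD, against 212 and 77.1 CPM in Mx. The plasma cell gene Igj went the same way, with 8.34 and 242 CPM in NPMc_Flt3ITD, 28.1 and 235 in Flt3ITD, against 6.26 and 82.3 in Mx. The B cell gene Cd79a was highest in Mx replicate 2, at 0.486 and 6.7 CPM in NPMc_Flt3ITD, 1.25 and 4.91 in Flt3ITD, against 8.89 and 80.1 in Mx. The T and NK cell markers summed to 14.0 to 61.6 CPM and the macrophage and dendritic markers to 7.09 to 26.9 CPM across the libraries, with Cd3e and C1qa near 0. Stromal and endothelial markers summed to 73.6 to 135 CPM, mostly Pecam1, which LT-HSC also express, with Cdh5 at or near 0. The female-expressed Xist had 259 and 625 CPM in NPMc_Flt3ITD, 37.2 and 547 in Flt3ITD, against 1007 and 1038 in Mx, and the Y-linked Eif2s3y had 72 and 48.2 CPM in NPMc_Flt3ITD, 70.1 and 37.8 in Flt3ITD, against 20.6 and 18.5 in Mx. Both mutant groups thus lay below Mx for Xist and above it for Eif2s3y, so the mix of sexes goes with genotype and cannot be told apart from it. X-linked genes were 2 of 76 shared rises (2.63%) and 9 of 209 shared falls (4.31%), against 3.50% of all tested genes, and Eif2s3y was the only Y-linked shared gene. Flt3 itself (64.3 and 93.6 CPM in NPMc_Flt3ITD, 32.5 and 39.8 in Flt3ITD, against 43.6 and 38.3 in Mx) and Npm1 (1380.2 and 1691 CPM in NPMc_Flt3ITD, 1793 and 2336 in Flt3ITD, against 1239 and 1594 in Mx) did not pass the test, at log2 changes of 0.37 (adjusted p = 0.389) and 0.33 (adjusted p = 0.49). Gene-level values cannot show the duplication or the mutant nucleophosmin allele.

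**Figure D1:**
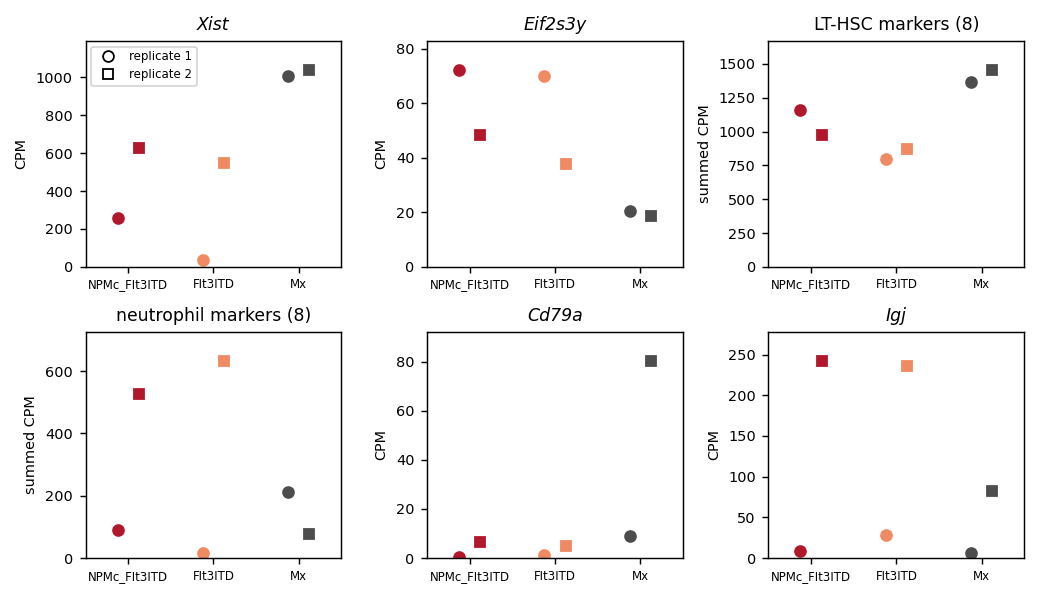
Levels per library (y axis, CPM, or summed CPM for the marker lists of 8 genes) of sex-linked genes and of markers of other cells, by group (x axis), with circles for replicate 1 and squares for replicate 2. Xist lies lower and Eif2s3y higher in all 4 mutant libraries than in Mx, whereas the neutrophil markers and Igj are highest in replicate 2 of both mutants.

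More genes fell than rose in the mutants in the main fit, but not with replicate number as a block, as given below. Of the 12657 genes, 288 changed (2.28%), 78 rising (0.616%) and 210 falling (1.66%), and a further description by position found all 4 mutant libraries above both Mx libraries for 1232 genes (9.73%) and below both for 1683 (13.3%). The shared set combines these and holds 76 rises (0.6%) and 209 falls (1.65%). Counts of list members that rose or fell stand beside the 0.616% and 1.66% of all tested genes. The median log2 change was 1.51 among the shared rises and -1.76 among the shared falls, against 0.02 over all tested genes. The shared rises had a median mean level of 49.9 CPM in the mutants and 14.3 CPM in Mx, and the shared falls 9.51 CPM in the mutants and 36.9 CPM in Mx. A gap of at least 3-fold between the nearest mutant and Mx libraries separated 12 of the rises and 63 of the falls, while the narrowest gaps, for Clec2i, Cdc6 and Tfrc, were 1.03-fold, 1.04-fold and 1.06-fold. For 22 of the falls the gene stayed under 1 CPM in all 4 mutant libraries, and Nudt11, at 2.17 and 2.21 CPM in Mx, was listed at 0 in all 4. At the threshold, Mpped2 (adjusted p = 0.0498) was just inside, and Hdgf and Epb4.1l3 (adjusted p = 0.0508) were just outside.

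The size of the changed set depended on how the libraries were modelled. With replicate number as a block, 1402 genes changed (11.1%), and the surplus of falls was gone, with 704 up (5.56%) and 698 down (5.51%). Counts of list members given below for the block stand beside these larger shares. Of the 1402, 1032 also had all 4 mutant libraries on the same side of both Mx libraries (8.15% of all tested genes). All 288 genes of the unblocked fit were among the 1402. Leaving out an Mx library, which leaves a lone Mx library that is assumed to vary like the others, lowered the count to 15 without Mx replicate 1 and 31 without Mx replicate 2, and without a mutant library it was between 65 and 269. The fold changes of the 288 genes kept their sign under every setting in which they could be tested. The 200 calls of edgeR's quasi-likelihood test on the recovered reads held 196 of the 288. Of the 72 genes that the naming rule gave, that test ended the call for 7, namely Apob, Mpo, Sdc4, Clip3, Cdc6, Cyr61 and Tbxas1. With the values scaled to library totals the genes apart from Mx divided into 701 above and 2318 below, and the median over all genes was -0.09.

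**Figure D2:**
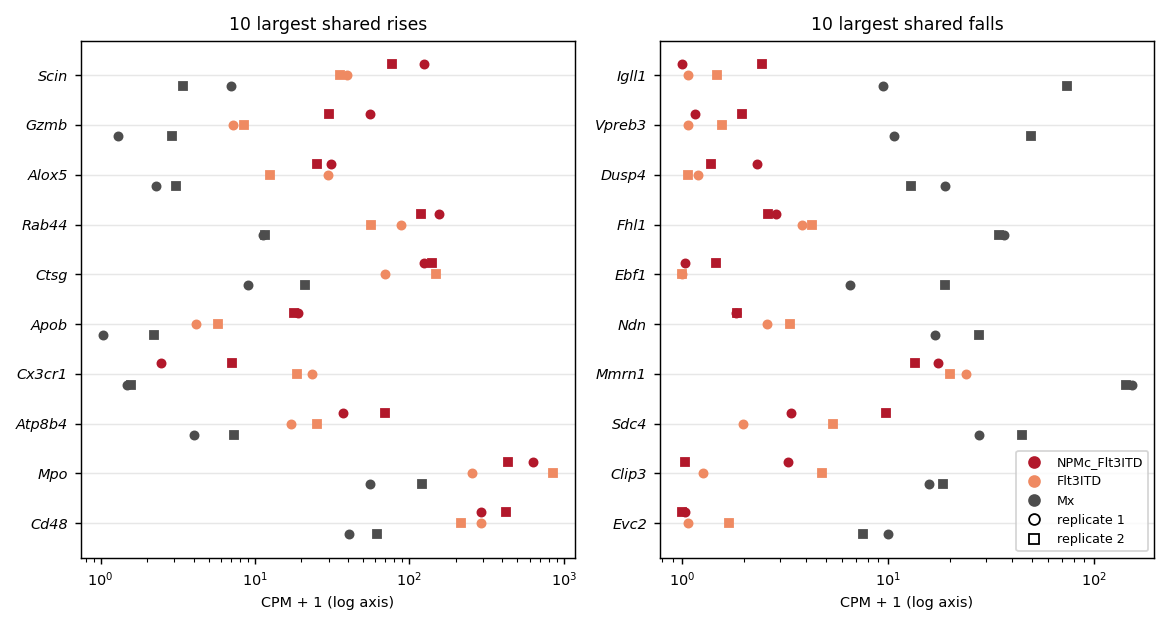
CPM + 1 on a log axis in each library for the 10 largest shared rises (left) and the 10 largest shared falls (right), in order of log2 change, coloured by group with circles for replicate 1 and squares for replicate 2. Every mutant point lies beyond both Mx points, with the widest spread within a group in Mx for Igll1 and Vpreb3.

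Granule and cytotoxic protease genes and other genes of granulocyte-monocyte progenitors were among the rises. Of 21 tested genes on a list of these progenitors, 5 rose (Ctsg, Mpo, Cst7, Nkg7 and Serpinb1a), none fell and 11 (52.4%) had all 4 mutant libraries above both Mx libraries, against 9.73% of all tested genes. The list's median log2 change was 1.16, with 1.51 in NPMc_Flt3ITD and 0.93 in Flt3ITD over Mx. Ctsg, the neutrophil serine protease cathepsin G, had 124 and 138 CPM in NPMc_Flt3ITD, 69 and 148 in Flt3ITD, against 7.95 and 20.1 in Mx. Ctsg rose by 3.08 on the log2 scale (SE 0.38, adjusted p = 0.00852). Mpo, the myeloperoxidase of azurophil granules, had 631 and 432 CPM in NPMc_Flt3ITD, 254 and 848 in Flt3ITD, against 54.7 and 120.2 in Mx. Mpo rose by 2.59 on the log2 scale (SE 0.46, adjusted p = 0.0299). These 2 genes were lowest in Mx and, among the mutants, lowest in Flt3ITD replicate 1. Gzmb, the cytotoxic protease granzyme B, had 54.3 and 29 CPM in NPMc_Flt3ITD, 6.24 and 7.51 in Flt3ITD, against 0.300 and 1.88 in Mx, with all 3 groups apart from each other. Gzmb rose by 3.21 on the log2 scale (SE 0.41, adjusted p = 0.011). Cst7, the protease inhibitor cystatin F, had 41.9 and 32.7 CPM in NPMc_Flt3ITD, 34.7 and 27.4 in Flt3ITD, against 5.96 and 7.4 in Mx. Cst7 rose by 2.19 on the log2 scale (SE 0.24, adjusted p = 0.00464). Nkg7, a cytotoxic granule membrane protein, had 291 and 280.2 CPM in NPMc_Flt3ITD, 249.5 and 179 in Flt3ITD, against 76.3 and 90.3 in Mx. Nkg7 rose by 1.55 on the log2 scale (SE 0.17, adjusted p = 0.00464). Serpinb1a, an intracellular inhibitor of neutrophil proteases, had 247 and 294 CPM in NPMc_Flt3ITD, 153 and 158 in Flt3ITD, against 107 and 98 in Mx. Serpinb1a rose by 0.99 on the log2 scale (SE 0.14, adjusted p = 0.0162). Elane, neutrophil elastase, had 178 and 107 CPM in NPMc_Flt3ITD, 3.22 and 188 in Flt3ITD, against 1.57 and 13.4 in Mx and did not pass, with Flt3ITD replicate 1 below Mx replicate 2. The neutrophil marker sums given above were highest in replicate 2 of both mutants and lowest in Flt3ITD replicate 1. The part of neutrophils, or of T and NK cells, in these rises was not tested. With replicate number as a block 14 of the 21 rose; without Mx replicate 1 none passed, and 3 passed without Mx replicate 2 and 3 to 9 without a mutant library. By edgeR's quasi-likelihood test Mpo missed the threshold, at an adjusted p of 0.0684.

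The promoters of 4 granule and protease genes among the rises are shown, chosen because they carry the letters of a RUNX site, RUNX1 being a transcription factor of blood stem and myeloid cells. The sequences are the 250 bases before the RefSeq start in GRCm38.p6, a later build than the mm9 of the reads, on the gene's own strand, with TGTGGT or its reverse complement ACCACA in capitals. The matched promoter of Mpo holds neither and is not shown.
Ctsg, chr14:56102575-56102824, minus strand: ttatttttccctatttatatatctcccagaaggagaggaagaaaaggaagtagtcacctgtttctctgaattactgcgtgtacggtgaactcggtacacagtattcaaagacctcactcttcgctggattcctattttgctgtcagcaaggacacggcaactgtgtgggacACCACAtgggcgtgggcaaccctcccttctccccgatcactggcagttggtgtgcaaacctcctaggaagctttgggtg
Gzmb, chr14:56262335-56262584, minus strand: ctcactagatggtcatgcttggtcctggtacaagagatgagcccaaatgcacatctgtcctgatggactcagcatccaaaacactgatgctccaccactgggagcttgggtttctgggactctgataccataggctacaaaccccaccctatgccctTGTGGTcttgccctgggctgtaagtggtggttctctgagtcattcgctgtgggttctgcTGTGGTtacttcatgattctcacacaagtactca
Nkg7, chr7:43436888-43437137, plus strand: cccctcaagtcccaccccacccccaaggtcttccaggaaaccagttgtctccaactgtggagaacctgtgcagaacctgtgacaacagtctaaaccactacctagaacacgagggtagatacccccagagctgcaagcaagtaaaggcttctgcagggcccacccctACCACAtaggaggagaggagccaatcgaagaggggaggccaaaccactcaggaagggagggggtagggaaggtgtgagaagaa
Cst7, chr2:150570165-150570414, plus strand: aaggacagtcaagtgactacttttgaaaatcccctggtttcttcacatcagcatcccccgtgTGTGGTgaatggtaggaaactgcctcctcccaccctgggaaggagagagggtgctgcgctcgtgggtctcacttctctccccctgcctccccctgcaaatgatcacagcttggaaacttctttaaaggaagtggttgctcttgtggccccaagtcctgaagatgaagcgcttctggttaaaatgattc
A RefSeq promoter matched 56 of the 76 shared rises, 151 of the 209 shared falls and 9429 of the tested genes. TGTGGT stood, on either strand, in 14 of the 56 matched promoters of rises (25%), in 18 of the 151 of falls (11.9%), in 11.0% of those of tested genes and in 14.2% of all 27025 promoters in the table. It was 1 of 8 letter patterns searched, and both it and the 4 genes were singled out after these counts and values were known. The other patterns, searched on both strands and free to overlap each other, were TGACGTCA for CREB-type factors, TGANTCA for AP-1, TTCNNNGAA for STAT factors, CACGTG for an E-box, TATAAA for a core promoter box, AGATAA for erythroid-type GATA factors and GAGGAAGT for PU.1. The AP-1 pattern stood in 6 of the 56 promoters of rises (10.7%), 10 of the 151 of falls (6.62%) and 4.36% of those of tested genes, a larger ratio of rises to tested genes than for TGTGGT. The STAT pattern stood in 4 of the 56 promoters of rises (7.14%), 13 of the 151 of falls (8.61%) and 6.02% of those of tested genes, and the PU.1 pattern in 5.36% of rises, 4.64% of falls and 2.55% of tested genes. In the same order, TATAAA stood in 10.7%, 9.93% and 6.33%, CACGTG in 8.93%, 4.64% and 8.52%, AGATAA in 5.36%, 6.62% and 5.88%, and TGACGTCA in none, 3.97% and 2.74%. These are descriptions of letters in a window and say nothing of binding.

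The largest rise of all was in Scin, encoding the actin-severing protein scinderin, with 124 and 76.2 CPM in NPMc_Flt3ITD, 38.6 and 34.4 in Flt3ITD, against 6.04 and 2.4 in Mx. Scin rose by 3.63 on the log2 scale (SE 0.33, adjusted p = 0.00248). Rab44, a large Rab GTPase linked to granule release in mast cells, had 154 and 118 CPM in NPMc_Flt3ITD, 86.9 and 55.1 in Flt3ITD, against 10.3 and 10.7 in Mx. Rab44 rose by 3.08 on the log2 scale (SE 0.22, adjusted p = 0.00128). Both genes were apart between all 3 groups, with NPMc_Flt3ITD the highest. Alox5, the 5-lipoxygenase that starts leukotriene synthesis, had 30.2 and 24.2 CPM in NPMc_Flt3ITD, 28.6 and 11.6 in Flt3ITD, against 1.27 and 2.07 in Mx, the mutants overlapping each other. Alox5 rose by 3.14 on the log2 scale (SE 0.38, adjusted p = 0.00819). Atp8b4, a phospholipid flippase gene, had 36.4 and 68.5 CPM in NPMc_Flt3ITD, 16.2 and 24.1 in Flt3ITD, against 3.04 and 6.27 in Mx. Atp8b4 rose by 2.59 on the log2 scale (SE 0.36, adjusted p = 0.0152). Apob, the apolipoprotein of lipoprotein particles, had 18.1 and 16.8 CPM in NPMc_Flt3ITD, 3.15 and 4.72 in Flt3ITD, against 0.0375 and 1.23 in Mx. Apob rose by 2.64 on the log2 scale (SE 0.39, adjusted p = 0.0164). By edgeR's test Apob did not pass (adjusted p of 0.121). The 7 measured mast cell and basophil markers, of which Cpa3 and Mcpt8 rose, summed to 514 and 363 CPM in NPMc_Flt3ITD, 460 and 212 in Flt3ITD, against 210 and 188 CPM in Mx, with Flt3ITD replicate 2 barely above Mx replicate 1. Gata2, which LT-HSC also express, made up much of that sum, with 289 and 194 CPM in NPMc_Flt3ITD, 365 and 146 in Flt3ITD, against 186 and 167 in Mx, Flt3ITD replicate 2 being below both Mx libraries. Fcer1a, the IgE-binding receptor chain, lay below Mx in all mutants, with 0 and 0 CPM in NPMc_Flt3ITD, 0.919 and 0.475 in Flt3ITD, against 1.46 and 1.74 in Mx. Of the basophil protease genes Mcpt8 reached at most 11.4 CPM and Prss34 at most 1.01 CPM in any library. The part of such cells in the rises was not tested.

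Genes of multipotent progenitors were also among the rises. Cd48, a SLAM family receptor that marks multipotent progenitors and is low on LT-HSC, had 290.0 and 419 CPM in NPMc_Flt3ITD, 290.3 and 215 in Flt3ITD, against 39.9 and 60.9 in Mx, each mutant library at more than 3 times the higher Mx library. Cd48 rose by 2.56 on the log2 scale (SE 0.23, adjusted p = 0.00248). Plac8, a cysteine-rich protein of myeloid and lymphoid progenitors, had 824 and 935 CPM in NPMc_Flt3ITD, 749 and 866 in Flt3ITD, against 213 and 299 in Mx, with little spread among the mutants. Plac8 rose by 1.73 on the log2 scale (SE 0.19, adjusted p = 0.00464). These were the 2 of 16 tested genes on the multipotent progenitor list that rose; none fell, and 3 (18.8%, against 9.73% of all tested genes) lay above both Mx libraries in all mutants. The median log2 change was 0.19, but -0.07 without Mx replicate 1, -0.03 without Flt3ITD replicate 2 and -0.0049 without NPMc_Flt3ITD replicate 2. By genotype it had opposite signs, at 0.41 in NPMc_Flt3ITD and -0.19 in Flt3ITD over Mx. Cd48 passed with any 1 library left out, Plac8 with any but Mx replicate 1, and the list had 5 rises and 1 fall with replicate number as a block. Cx3cr1, the fractalkine receptor of monocytes, had 1.46 and 6.07 CPM in NPMc_Flt3ITD, 22.3 and 17.8 in Flt3ITD, against 0.487 and 0.565 in Mx. Cx3cr1 rose by 2.61 on the log2 scale (SE 0.44, adjusted p = 0.0254). It was higher in Flt3ITD than in NPMc_Flt3ITD by position, but their difference of -2.33 on the log2 scale missed the threshold (limma adjusted p of 0.07), and passed it with replicate number as a block (adjusted p of 0.0108).

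Of 18 tested genes on the STAT5 list, which holds targets of STAT5 and also Stat5a and Stat5b, 3 rose (Socs2, Osm and Podxl). One other gene, Socs3, fell, while 14 did not pass. All 4 mutant libraries lay above both Mx libraries for 3 (16.7%, against 9.73% of all tested genes) and below for 2 (11.1%, against 13.3%). The median log2 change was 0.10, but -0.12 without Mx replicate 2 and -0.02 with values scaled to library totals. By genotype it had opposite signs, at 0.30 in NPMc_Flt3ITD and -0.14 in Flt3ITD over Mx. Socs2, a feedback inhibitor of cytokine receptors and a classical STAT5 target, had 229 and 359 CPM in NPMc_Flt3ITD, 129 and 151 in Flt3ITD, against 60.8 and 54.7 in Mx. Socs2 rose by 1.78 on the log2 scale (SE 0.20, adjusted p = 0.00464). Osm, the cytokine oncostatin M, had 129 and 122 CPM in NPMc_Flt3ITD, 51.1 and 26.4 in Flt3ITD, against 11.9 and 16 in Mx. Osm rose by 2.22 on the log2 scale (SE 0.27, adjusted p = 0.00783). Between the mutants Osm differed by 1.74 on the log2 scale (adjusted p = 0.0391). Podxl, the sialomucin podocalyxin, had 50.8 and 48.6 CPM in NPMc_Flt3ITD, 30.7 and 42.5 in Flt3ITD, against 16.4 and 12.9 in Mx. Podxl rose by 1.48 on the log2 scale (SE 0.22, adjusted p = 0.0162). For all 3 genes NPMc_Flt3ITD was the highest group. Socs3, which STAT3 as well as STAT5 induces, had 49.4 and 62.5 CPM in NPMc_Flt3ITD, 27 and 23.3 in Flt3ITD, against 119.6 and 71.7 in Mx. Socs3 fell by 1.29 on the log2 scale (SE 0.23, adjusted p = 0.03). It failed the test when any 1 library was left out. Cish and Pim1, other STAT5 targets, did not pass. Without Mx replicate 1 none of the 18 genes passed, and 1 passed without Mx replicate 2.

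Genes that mark LT-HSC were among the falls. Of 28 tested genes on the LT-HSC identity list 10 fell (among them Clec1a, Esam, Hlf, Mecom, Mllt3, Procr, Robo4, Sult1a1 and Tek), none rose, and 17 (60.7%) had all 4 mutant libraries below both Mx libraries, against 13.3% of all tested genes. The median log2 change was -0.96, with -0.83 in NPMc_Flt3ITD and -1.02 in Flt3ITD over Mx. Procr, encoding the protein C receptor EPCR found on LT-HSC, had 27.4 and 42.5 CPM in NPMc_Flt3ITD, 21.5 and 25.4 in Flt3ITD, against 87.6 and 85.8 in Mx. Procr fell by 1.58 on the log2 scale (SE 0.21, adjusted p = 0.0131). Mecom, the transcription factor EVI1 that maintains LT-HSC, had 53 and 53.8 CPM in NPMc_Flt3ITD, 19.8 and 33.4 in Flt3ITD, against 102 and 110.1 in Mx, with NPMc_Flt3ITD between Flt3ITD and Mx. Mecom fell by 1.49 on the log2 scale (SE 0.22, adjusted p = 0.0162). Mllt3, a reader of acetylated histones that supports HSC maintenance, had 40 and 43.9 CPM in NPMc_Flt3ITD, 38.6 and 70.6 in Flt3ITD, against 148 and 175 in Mx. Mllt3 fell by 1.76 on the log2 scale (SE 0.23, adjusted p = 0.0129). For each of these 3 genes all mutant libraries stayed well under the lower Mx library. Esam, an endothelial-type adhesion molecule and LT-HSC marker, had 42 and 41.2 CPM in NPMc_Flt3ITD, 51 and 51.7 in Flt3ITD, against 143 and 138 in Mx, with close replicates in every group. Esam fell by 1.58 on the log2 scale (SE 0.14, adjusted p = 0.00248). Clec1a, a C-type lectin receptor, had 1.68 and 2.43 CPM in NPMc_Flt3ITD, 2.43 and 1.14 in Flt3ITD, against 15 and 15.6 in Mx. Clec1a fell by 2.51 on the log2 scale (SE 0.34, adjusted p = 0.0136). Tek, the angiopoietin receptor TIE2, had 6.96 and 4.04 CPM in NPMc_Flt3ITD, 22.2 and 7.22 in Flt3ITD, against 64.2 and 47.5 in Mx. Tek fell by 2.59 on the log2 scale (SE 0.42, adjusted p = 0.0219). Kit, the stem cell factor receptor, did not pass, at 798 and 567 CPM in NPMc_Flt3ITD, 487 and 563 in Flt3ITD, against 689 and 716 in Mx, and the summed LT-HSC markers were lower in all 4 mutant libraries than in Mx, as given above. With replicate number as a block 18 of the 28 fell, while none passed without Mx replicate 1, 1 passed without Mx replicate 2, and 5 to 9 passed without a mutant library.

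Of 20 tested quiescence genes 3 fell (Ndn, Neo1 and Tgm2) and none rose. In all mutants 7 (35%) lay below both Mx libraries, against 13.3% of all tested genes. The median log2 change was -0.39, but -0.13 in NPMc_Flt3ITD and -0.66 in Flt3ITD over Mx. Ndn, encoding necdin, an imprinted growth suppressor that holds HSC in quiescence, had 0.823 and 0.838 CPM in NPMc_Flt3ITD, 1.58 and 2.34 in Flt3ITD, against 16 and 26.6 in Mx, the mutants all at or under 2.34 CPM. Ndn fell by 3.22 on the log2 scale (SE 0.34, adjusted p = 0.00464). Tgm2, transglutaminase 2, had 66.6 and 56.3 CPM in NPMc_Flt3ITD, 87.8 and 70.7 in Flt3ITD, against 224 and 183 in Mx. Tgm2 fell by 1.53 on the log2 scale (SE 0.17, adjusted p = 0.00464). Neo1, a netrin and repulsive guidance molecule receptor that marks dormant HSC, had 0.860 and 0.231 CPM in NPMc_Flt3ITD, 4.53 and 2.6 in Flt3ITD, against 10.9 and 14.9 in Mx. Neo1 fell by 2.41 on the log2 scale (SE 0.36, adjusted p = 0.0176). Cdkn1c, the p57 cyclin-dependent kinase inhibitor, did not pass, at 1.42 and 5.2 CPM in NPMc_Flt3ITD, 0.591 and 3.42 in Flt3ITD, against 3.22 and 6.27 in Mx, with overlapping groups. Ccnd1, cyclin D1, which drives G1 progression, had 6.36 and 7.17 CPM in NPMc_Flt3ITD, 13.7 and 10.6 in Flt3ITD, against 57.1 and 42.5 in Mx. Ccnd1 fell by 2.32 on the log2 scale (SE 0.25, adjusted p = 0.00464). Cdk6, its partner kinase in progenitors, had 135 and 126 CPM in NPMc_Flt3ITD, 110.0 and 116 in Flt3ITD, against 64 and 92.3 in Mx. Cdk6 did not pass, at a log2 change of 0.65 (SE 0.17, adjusted p = 0.103). It passed with replicate number as a block (adjusted p of 0.016) and by DESeq2 (adjusted p of 0.042). With the block 7 quiescence genes fell and 1 rose, and 1 of the 20 passed when either Mx library was left out.

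Targets of ERK signalling, several of which feed back to dampen it, were among the falls. Of 16 tested genes 5 fell (Dusp4, Dusp6, Etv5, Spry1 and Ccnd1, which is on this list too) and none rose. In all mutants 9 (56.2%) lay below both Mx libraries, against 13.3% of all tested genes. The median log2 change was -0.83, with -0.89 in NPMc_Flt3ITD and -1.06 in Flt3ITD over Mx. Dusp6, the cytoplasmic ERK phosphatase, had 49.9 and 44 CPM in NPMc_Flt3ITD, 63.2 and 52.5 in Flt3ITD, against 236 and 191 in Mx. Dusp6 fell by 2.01 on the log2 scale (SE 0.17, adjusted p = 0.00204). It passed with any 1 library left out. Dusp4, a nuclear phosphatase of the same family, had 1.31 and 0.376 CPM in NPMc_Flt3ITD, 0.197 and 0.0634 in Flt3ITD, against 18 and 12 in Mx. Dusp4 fell by 3.47 on the log2 scale (SE 0.37, adjusted p = 0.00464). Etv5, an ETS transcription factor induced by ERK, had 15.7 and 15 CPM in NPMc_Flt3ITD, 15.1 and 9.66 in Flt3ITD, against 49.8 and 38.2 in Mx. Etv5 fell by 1.61 on the log2 scale (SE 0.25, adjusted p = 0.0204). For these 3 genes both mutant groups lay far below Mx. The mutants overlapped for Etv5 and lay close together for Dusp6, while for Dusp4 NPMc_Flt3ITD was above Flt3ITD at low levels. With the block 8 fell and 1 rose, while 1 fell without Mx replicate 1, 3 without Mx replicate 2 and 3 to 6 without a mutant library. Of 17 immediate early genes 2 fell, the nuclear receptor gene Nr4a2 and the matricellular protein gene Cyr61. The list's median log2 change of -0.44 became 0.22 without Mx replicate 1. By genotype it was 0.05 in NPMc_Flt3ITD and -0.75 in Flt3ITD over Mx.

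Signalling by TGF-beta and BMP is known to keep HSC quiescent. Of 27 tested genes on the list of this pathway 4 fell (Klf10, Id3, Skil and Smad7) and none rose. In all mutants 7 (25.9%) lay below both Mx libraries, against 13.3% of all tested genes. The median log2 change was -0.30, but -0.05 in NPMc_Flt3ITD and -0.57 in Flt3ITD over Mx. Id3, an inhibitor of basic helix-loop-helix factors induced by BMP, had 4.08 and 5.37 CPM in NPMc_Flt3ITD, 0.985 and 2.28 in Flt3ITD, against 29.1 and 22.7 in Mx. Id3 fell by 2.81 on the log2 scale (SE 0.34, adjusted p = 0.00783). Klf10, a TGF-beta-inducible transcription factor, had 79.2 and 69.6 CPM in NPMc_Flt3ITD, 61.5 and 51 in Flt3ITD, against 187 and 191 in Mx. Klf10 fell by 1.54 on the log2 scale (SE 0.15, adjusted p = 0.00375). Skil, the SMAD corepressor SnoN, had 53.9 and 38.9 CPM in NPMc_Flt3ITD, 20.4 and 24.4 in Flt3ITD, against 101 and 83.8 in Mx. Skil fell by 1.49 on the log2 scale (SE 0.20, adjusted p = 0.0129). Smad7, the inhibitory SMAD, had 20.1 and 13.2 CPM in NPMc_Flt3ITD, 10.1 and 10.7 in Flt3ITD, against 35.1 and 39.5 in Mx. Smad7 fell by 1.44 on the log2 scale (SE 0.25, adjusted p = 0.0267). In all 4 genes both Flt3ITD libraries were below both NPMc_Flt3ITD libraries. The ligand gene Tgfb1 did not pass, at 12.5 and 17.9 CPM in NPMc_Flt3ITD, 8.14 and 15.7 in Flt3ITD, against 8.47 and 13.6 in Mx, and its log2 change of 0.26 was -0.06 without Mx replicate 1. With the block 6 fell; none passed without Mx replicate 1 and 1 without Mx replicate 2.

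Adhesion molecules and genes that LT-HSC share with platelets and endothelium were also among the falls. Of 17 tested adhesion and niche genes 6 fell (Cd38, Esam, Jam3, Robo4, Sdc4 and Tek, 3 of which are on the LT-HSC identity list) and none rose. In all mutants 5 (29.4%) lay above and 7 (41.2%) below both Mx libraries, against 9.73% and 13.3% of all tested genes. The median log2 change was -0.48, with -0.34 in NPMc_Flt3ITD and -0.75 in Flt3ITD over Mx. Sdc4, the heparan sulphate proteoglycan syndecan-4, had 2.39 and 8.84 CPM in NPMc_Flt3ITD, 0.985 and 4.44 in Flt3ITD, against 26.6 and 43.7 in Mx, with Mx replicate 1 at 3 times the highest mutant library. Sdc4 fell by 3.01 on the log2 scale (SE 0.54, adjusted p = 0.0299). Jam3, a junctional adhesion molecule, had 3.33 and 4.3 CPM in NPMc_Flt3ITD, 4.73 and 3.83 in Flt3ITD, against 15.5 and 21.2 in Mx. Jam3 fell by 1.93 on the log2 scale (SE 0.30, adjusted p = 0.02). Of 21 tested megakaryocyte and platelet genes 3 fell (Mmrn1, Selp and Sdpr) and none rose. In all mutants 7 (33.3%) lay below both Mx libraries, against 13.3% of all tested genes. The median log2 change was -0.41, with -0.30 in NPMc_Flt3ITD and -0.53 in Flt3ITD over Mx. Mmrn1, the platelet and endothelial protein multimerin 1, had 16.5 and 12.6 CPM in NPMc_Flt3ITD, 23 and 19 in Flt3ITD, against 152 and 143 in Mx. Mmrn1 fell by 3.01 on the log2 scale (SE 0.19, adjusted p = 0.00128). Selp, P-selectin, had 20.5 and 30.7 CPM in NPMc_Flt3ITD, 22.3 and 29 in Flt3ITD, against 122 and 131 in Mx. Selp fell by 2.28 on the log2 scale (SE 0.21, adjusted p = 0.00268). Sdpr, the caveola component cavin-2, had 15.6 and 5.58 CPM in NPMc_Flt3ITD, 10.2 and 9.73 in Flt3ITD, against 45.6 and 40.7 in Mx. Sdpr fell by 2.04 on the log2 scale (SE 0.36, adjusted p = 0.0288). For Mmrn1 and Selp the Mx libraries were close to each other, and all mutant libraries lay far below them. Markers of mature megakaryocytes summed to 207 and 85.3 CPM in NPMc_Flt3ITD, 114 and 113 in Flt3ITD, against 152 and 140 CPM in Mx, the NPMc_Flt3ITD libraries lying on either side of Mx, and the part of such cells in the falls was not tested. With the block 6 adhesion genes fell and 2 rose, and 7 megakaryocyte genes fell and 1 rose. Without Mx replicate 1 and Mx replicate 2 the falls numbered 0 and 1 for adhesion and 2 and 2 for megakaryocyte genes, and without NPMc_Flt3ITD replicates 1 and 2 those for adhesion numbered 1 and 2.

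Fhl1, a LIM-domain protein of the cytoskeleton and nucleus, had 1.87 and 1.62 CPM in NPMc_Flt3ITD, 2.82 and 3.26 in Flt3ITD, against 35.5 and 33.5 in Mx. Fhl1 fell by 3.42 on the log2 scale (SE 0.29, adjusted p = 0.00204). Evc2, a ciliary component of hedgehog signalling, had 0.0374 and 0 CPM in NPMc_Flt3ITD, 0.0657 and 0.697 in Flt3ITD, against 9.04 and 6.55 in Mx, with mutants at or under 0.70 CPM. Evc2 fell by 2.89 on the log2 scale (SE 0.36, adjusted p = 0.0098). Clip3, a linker of membranes and microtubules, had 2.28 and 0.0289 CPM in NPMc_Flt3ITD, 0.263 and 3.8 in Flt3ITD, against 14.8 and 17.5 in Mx. Clip3 fell by 3.01 on the log2 scale (SE 0.61, adjusted p = 0.0449). It varied widely within each mutant group and did not pass by edgeR (adjusted p of 0.198) or DESeq2 (adjusted p of 0.268). Of 12 tested imprinted genes 3 fell (Ndn, Grb10 and Meg3) and none rose. In all mutants 5 (41.7%) lay below both Mx libraries, against 13.3% of all tested genes. The median log2 change was -0.54. Meg3, a maternally expressed long non-coding RNA, had 0.524 and 0.982 CPM in NPMc_Flt3ITD, 1.51 and 0.570 in Flt3ITD, against 6.97 and 11.2 in Mx. Meg3 fell by 2.41 on the log2 scale (SE 0.38, adjusted p = 0.0198). Grb10, an adaptor that dampens receptor kinase signalling, had 6.81 and 9.97 CPM in NPMc_Flt3ITD, 31.4 and 43.7 in Flt3ITD, against 111 and 94.6 in Mx, with all 3 groups apart. Grb10 fell by 2.46 on the log2 scale (SE 0.23, adjusted p = 0.00268). With the block 4 fell, and 1 passed when either Mx library was left out.

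Of 15 tested genes of leukotriene and prostaglandin synthesis 1 rose (Alox5, given above) and 3 fell (Ptgs1, Ptgs2 and Tbxas1). The other 11 did not pass. Of all 15, 2 (13.3%) lay above and 6 (40%) below both Mx libraries in all mutants, against 9.73% and 13.3% of all tested genes. The median log2 change was -0.05, or 0.02 without NPMc_Flt3ITD replicate 1. Ptgs1, the constitutive cyclooxygenase COX-1, had 30 and 24.1 CPM in NPMc_Flt3ITD, 36 and 35.9 in Flt3ITD, against 119 and 98.1 in Mx. Ptgs1 fell by 1.77 on the log2 scale (SE 0.18, adjusted p = 0.00394). Ptgs2, the inducible COX-2, had 10.9 and 17 CPM in NPMc_Flt3ITD, 3.48 and 3.74 in Flt3ITD, against 24.2 and 28.2 in Mx. Ptgs2 fell by 1.72 on the log2 scale (SE 0.28, adjusted p = 0.0229). Tbxas1, thromboxane synthase, had 154 and 98.6 CPM in NPMc_Flt3ITD, 79.7 and 71.1 in Flt3ITD, against 179 and 192 in Mx. Tbxas1 fell by 0.94 on the log2 scale (SE 0.19, adjusted p = 0.0449). Ptgs1 lay lowest in NPMc_Flt3ITD, whereas Ptgs2 and Tbxas1 lay lowest in Flt3ITD. With the block 2 rose and 5 fell. Without Mx replicate 1 none passed, and 1 gene rose and 1 fell without Mx replicate 2, without Flt3ITD replicate 1 or without NPMc_Flt3ITD replicate 2. Among 21 tested NF-kB and inflammatory genes 3 fell (Icam1, Nfkbiz and Ptgs2) and none rose. In all mutants 6 (28.6%) lay below both Mx libraries, against 13.3% of all tested genes. The median log2 change was -0.38, but -0.07 in NPMc_Flt3ITD and -0.64 in Flt3ITD over Mx. Icam1, the leukocyte adhesion molecule, had 22 and 21.6 CPM in NPMc_Flt3ITD, 24.8 and 21 in Flt3ITD, against 62.7 and 63 in Mx. Icam1 fell by 1.45 on the log2 scale (SE 0.18, adjusted p = 0.0105). Nfkbiz, an atypical inhibitor of NF-kB, had 106 and 69.3 CPM in NPMc_Flt3ITD, 31.8 and 35.1 in Flt3ITD, against 199 and 131 in Mx. Nfkbiz fell by 1.57 on the log2 scale (SE 0.23, adjusted p = 0.0162). Icam1 was even across the mutants, but Nfkbiz was lower in Flt3ITD than in NPMc_Flt3ITD in both libraries. Without Mx replicate 1 none of these 21 passed, and without Mx replicate 2 1 passed.

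The 2 largest log2 falls of the whole table were in B-lineage genes. Of 19 tested early B-lineage and lymphoid genes 4 fell (Igll1, Vpreb3, Ebf1 and Rag1) and none rose. In all mutants 2 (10.5%) lay above and 10 (52.6%) below both Mx libraries, against 9.73% and 13.3% of all tested genes. The median log2 change was -1.79. Igll1, the lambda5 surrogate light chain of pre-B cells, had 0 and 1.44 CPM in NPMc_Flt3ITD, 0.0657 and 0.475 in Flt3ITD, against 8.51 and 73.5 in Mx. Igll1 fell by 4.25 on the log2 scale (SE 0.75, adjusted p = 0.0288). Vpreb3, which assists pre-B receptor assembly, had 0.150 and 0.953 CPM in NPMc_Flt3ITD, 0.0657 and 0.570 in Flt3ITD, against 9.67 and 48.7 in Mx. Vpreb3 fell by 4.05 on the log2 scale (SE 0.59, adjusted p = 0.0162). Ebf1, the transcription factor that commits cells to the B lineage, had 0.0374 and 0.462 CPM in NPMc_Flt3ITD, 0 and 0 in Flt3ITD, against 5.51 and 18 in Mx. Ebf1 fell by 3.33 on the log2 scale (SE 0.47, adjusted p = 0.0159). All 4 mutant libraries were at or under 1.44 CPM for these 3 genes, and Mx replicate 2 was several times Mx replicate 1. Cd79a, a marker of committed B cells whose values are given above, lay in the same order. Summed over the 7 measured B and plasma cell markers the groups overlapped, at 160 and 476 CPM in NPMc_Flt3ITD, 186 and 374 in Flt3ITD, against 188 and 334 CPM in Mx, Igj being high in replicate 2 of each mutant. The part of B-lineage cells in these falls was not tested. The log2 change of Igll1 was -2.76 without Mx replicate 2 and -5.73 without Mx replicate 1; 3 of the 19 genes passed without Mx replicate 1, none without Mx replicate 2, none without NPMc_Flt3ITD replicate 1 or 2 and 3 and 4 without Flt3ITD replicates 1 and 2. With the block 11 fell and 2 rose.

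Of 23 tested interferon-response genes 1 fell and none rose. The gene that fell, Ifi44, an interferon-induced protein, had 30.1 and 18.2 CPM in NPMc_Flt3ITD, 28.7 and 21.7 in Flt3ITD, against 69 and 84.3 in Mx. Ifi44 fell by 1.62 on the log2 scale (SE 0.25, adjusted p = 0.0177). In this list 11 (47.8%) lay below and 1 (4.35%) above both Mx libraries in all mutants, against 13.3% and 9.73% of all tested genes. The median log2 change was -0.50. With the block 6 fell, and none passed when either Mx library was left out. Hoxa and Hoxb cluster genes, of which several are high in NPM1-mutant leukaemia, did not pass against Mx in any of 14 tested cases. In all mutants 3 (21.4%) lay below both Mx libraries, against 13.3% of all tested genes, and 1 fell with the block. The median log2 change was -0.46, but -0.15 in NPMc_Flt3ITD and -0.75 in Flt3ITD over Mx. Hoxa10 was higher in NPMc_Flt3ITD than in Flt3ITD by the test between the mutants (limma adjusted p under 0.05).

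**Figure D3:**
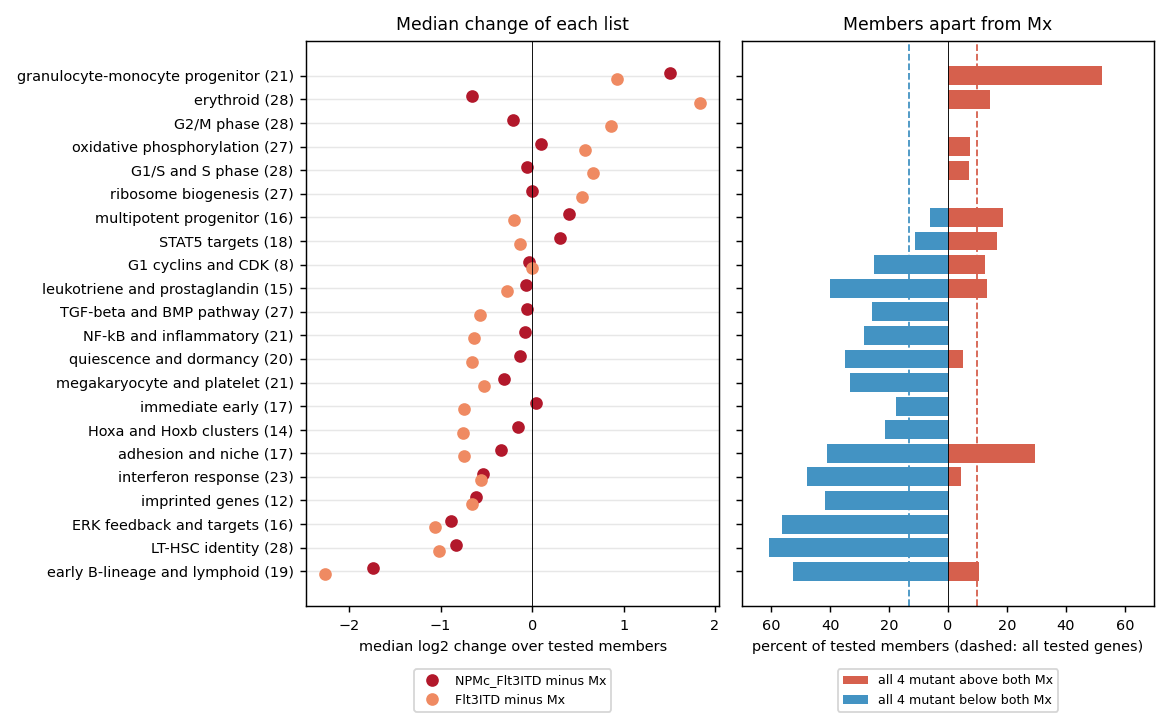
Left, median log2 change of each gene list for NPMc_Flt3ITD minus Mx and Flt3ITD minus Mx, with the number of tested members in brackets. Right, percent of members with all 4 mutant libraries above (right of 0) or below (left of 0) both Mx libraries, the dashed lines giving 9.73% and 13.3% of all tested genes; the granulocyte-monocyte list stands highest on the right and the LT-HSC identity list lowest.

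Erythroid genes differed between the mutants. Of 28 tested erythroid genes 1 rose (Tfrc) and none fell, yet the median log2 change over Mx was -0.66 in NPMc_Flt3ITD and 1.84 in Flt3ITD, and 15 of the 28 were lower in NPMc_Flt3ITD than in Flt3ITD by the test between the mutants (limma adjusted p under 0.05). Of all 12657 genes that test called 149 (1.18%), 35 higher (0.277%) and 114 lower (0.901%) in NPMc_Flt3ITD. With 1 library left out, Tfrc passed without Flt3ITD replicate 2 and without NPMc_Flt3ITD replicate 1, and not otherwise. The 5 measured late erythroid markers summed to 2.77 and 4.07 CPM in NPMc_Flt3ITD, 76.9 and 71.5 in Flt3ITD, against 11.8 and 10.8 CPM in Mx, with Slc4a1 at or near 0 throughout. Of 28 G2/M genes none passed against Mx, with medians of -0.21 in NPMc_Flt3ITD and 0.86 in Flt3ITD, and 7 were lower in NPMc_Flt3ITD. Of 28 G1/S genes 1 rose (Cdc6, which failed with any 1 library left out), with medians of -0.06 in NPMc_Flt3ITD and 0.67 in Flt3ITD, and 3 were lower in NPMc_Flt3ITD. Mki67, the proliferation antigen Ki-67, had 101 and 129.8 CPM in NPMc_Flt3ITD, 205 and 189 in Flt3ITD, against 127 and 117 in Mx and did not pass. None of 27 ribosome biogenesis genes and none of 27 oxidative phosphorylation genes passed, at median log2 changes of 0.27 and 0.31. By genotype these medians over Mx were -0.001 and 0.09 in NPMc_Flt3ITD, and 0.55 and 0.58 in Flt3ITD. With replicate number as a block, 9 erythroid, 4 G2/M, 6 G1/S, 8 ribosome biogenesis and 12 oxidative phosphorylation genes rose and none of these lists had a fall. A pooled mean of the mutants can pass on the strength of one group alone, and 3 of the 288 changed genes did so without all mutant libraries clearing Mx: Mt1, the metal-binding metallothionein 1 (26 and 17.2 CPM in NPMc_Flt3ITD, 128 and 235 in Flt3ITD, against 22.2 and 19.5 in Mx), Fam132a, the secreted protein adipolin (44.2 and 31.4 CPM in NPMc_Flt3ITD, 134 and 153 in Flt3ITD, against 41.9 and 33.2 in Mx), and Gdf3, a TGF-beta family ligand (4.26 and 4.97 CPM in NPMc_Flt3ITD, 32.4 and 40.2 in Flt3ITD, against 37.2 and 43 in Mx). Mt1 and Fam132a were high in Flt3ITD, and Gdf3 was low in NPMc_Flt3ITD, the other mutant group overlapping Mx in each case. Shared genes could also rest mostly on 1 group. The log2 change of Pdgfrb over Mx was 2.79 in NPMc_Flt3ITD and 0.27 in Flt3ITD, and that of Cdc6 0.26 and 1.39. The criteria for shared genes held no test of either mutant group alone against Mx.

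Some of the shared genes differed in size between the mutants. The contrast between the mutants uses no Mx library in its difference. It called 16 of the 285 shared genes, against 149 of all 12657 tested genes (1.18%). Of the rises, 7 were higher in NPMc_Flt3ITD (Pdgfrb, Cpa3, Lat2, Akr1c12, Cyp11a1, Osm and Clec2i) and 4 were higher in Flt3ITD (Tfrc, Alad, Srm and Cdc6). Of the falls, 3 had fallen further in Flt3ITD (Sik1, Rgs1 and Cytip) and 2 further in NPMc_Flt3ITD (Grb10 and Gbp6). Pdgfrb, the receptor for platelet-derived growth factor B, had 65.7 and 59.3 CPM in NPMc_Flt3ITD, 10.5 and 9.63 in Flt3ITD, against 7.95 and 8.39 in Mx. Pdgfrb differed between the mutants by 2.52 on the log2 scale (adjusted p = 0.00434), with Flt3ITD barely above Mx. Cpa3, the carboxypeptidase of mast cells and early progenitors, had 205 and 152 CPM in NPMc_Flt3ITD, 52.1 and 42.4 in Flt3ITD, against 15.5 and 15.5 in Mx. Cpa3 differed between the mutants by 1.89 on the log2 scale (adjusted p = 0.00673). Lat2, an adaptor of immune receptors in myeloid and mast cells, had 187 and 165 CPM in NPMc_Flt3ITD, 57.1 and 65 in Flt3ITD, against 22 and 22.5 in Mx. Lat2 differed between the mutants by 1.51 on the log2 scale (adjusted p = 0.00728). In Cpa3 and Lat2 all 3 groups were apart. Akr1c12, an aldo-keto reductase gene with close paralogues with which it may share reads, had 26.9 and 55 CPM in NPMc_Flt3ITD, 4.6 and 4.31 in Flt3ITD, against 2.25 and 2.83 in Mx. Akr1c12 differed between the mutants by 2.86 on the log2 scale (adjusted p = 0.0143).

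Tfrc, the transferrin receptor, had 65.9 and 89.4 CPM in NPMc_Flt3ITD, 185 and 180.0 in Flt3ITD, against 62.1 and 54.9 in Mx. Tfrc differed between the mutants by -1.24 on the log2 scale (adjusted p = 0.0241), with NPMc_Flt3ITD replicate 1 close to Mx. Alad, the second enzyme of haem synthesis, had 77.8 and 58.3 CPM in NPMc_Flt3ITD, 164 and 148 in Flt3ITD, against 53.8 and 54.3 in Mx. Alad differed between the mutants by -1.20 on the log2 scale (adjusted p = 0.0257). Srm, spermidine synthase, had 99.8 and 117 CPM in NPMc_Flt3ITD, 285 and 221 in Flt3ITD, against 68.4 and 90.7 in Mx. Srm differed between the mutants by -1.21 on the log2 scale (adjusted p = 0.0348). Cdc6, the replication licensing factor, had 42 and 37.4 CPM in NPMc_Flt3ITD, 94.2 and 82.2 in Flt3ITD, against 36 and 30 in Mx. Cdc6 differed between the mutants by -1.13 on the log2 scale (adjusted p = 0.0384). In all 4 both Flt3ITD libraries exceeded both NPMc_Flt3ITD libraries, which lay closer to Mx. Among the falls, Sik1, a salt-inducible kinase, had 151 and 143 CPM in NPMc_Flt3ITD, 48.2 and 60.4 in Flt3ITD, against 213 and 181 in Mx. Sik1 differed between the mutants by 1.43 on the log2 scale (adjusted p = 0.00927), NPMc_Flt3ITD lying nearer to Mx. Grb10 went the other way, at the values given above, by -2.04 on the log2 scale (adjusted p = 0.01). Gbp6, a guanylate-binding GTPase induced by interferon, had 4.49 and 2.46 CPM in NPMc_Flt3ITD, 15.5 and 17.3 in Flt3ITD, against 30.8 and 28.2 in Mx. Gbp6 differed between the mutants by -1.99 on the log2 scale (adjusted p = 0.0286). Without the block the test between the mutants called 19 of the 288 changed genes, against 1.18% of all tested genes. With the block it called 395 of the 1402 changed genes. Its share over all tested genes is not given, so the 395 cannot be read as particular to changed genes.

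**Figure D4:**
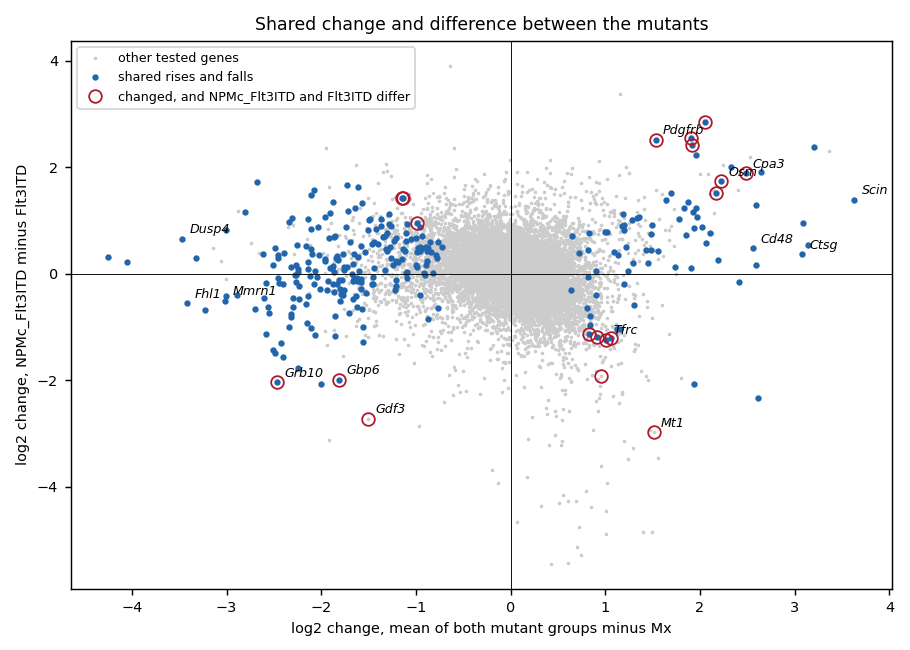
Log2 change of the mutant mean minus Mx (x axis) against log2 NPMc_Flt3ITD minus Flt3ITD (y axis) for each tested gene; blue points are the 285 shared genes and red rings the 19 changed genes that differed between the mutants. Ringed rises stand both above 0 (Pdgfrb at 2.52, Cpa3 at 1.89) and below it (Tfrc at -1.24), and the unshared Mt1 and Gdf3 lie low.

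By position alone, both NPMc_Flt3ITD libraries lay above both Flt3ITD libraries in 46 of the 76 shared rises (60.5%), below them in 15 (19.7%), and overlapped in 15. Among the 209 falls, 81 (38.8%) had NPMc_Flt3ITD above Flt3ITD, nearer to Mx, 45 (21.5%) had it below and 83 overlapped (39.7%), against 24.4%, 23.8% and 51.8% of all tested genes. The median log2 change of the rises was 1.82 for NPMc_Flt3ITD and 1.27 for Flt3ITD over Mx, and that of the falls -1.69 for NPMc_Flt3ITD and -1.77 for Flt3ITD. Of the 285 genes 16, given above, passed a test of the difference, so most of these orders are descriptions within 2 libraries a group. The test that chose the shared genes favours little spread within groups. Such genes can overlap less often for that reason alone, so their shares are not fully comparable with those of all tested genes.

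**Figure D5:**
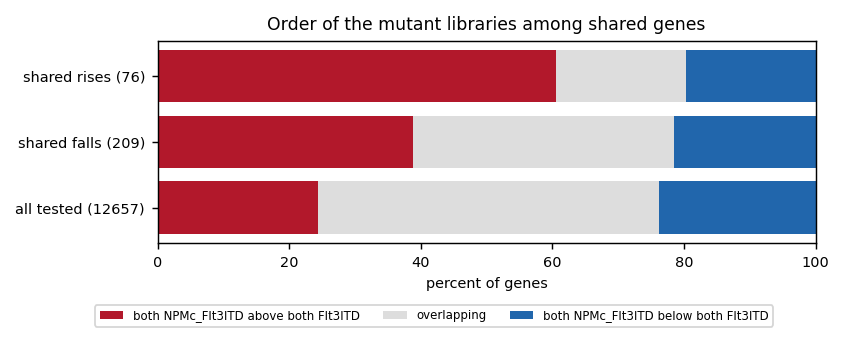
Percent of genes (x axis) in which both NPMc_Flt3ITD libraries lie above both Flt3ITD libraries, overlap them or lie below them, for the 76 shared rises, the 209 shared falls and all 12657 tested genes. NPMc_Flt3ITD lies above in 60.5% of the rises, 38.8% of the falls and 24.4% of all tested genes.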

How the data were processed

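RNA of sorted LT-HSC was measured in 6 libraries, 2 per genotype. The deposited table gives 1 signal value per gene and library, a CPM normalized by the authors with edgeR per the file headers. Reads were aligned to mm9 and counted, and the submitters' processing notes name HTSeq 0.6.1p1, Bowtie2 2.2.4, TopHat2 2.1.0, SAMtools 0.1.18, CASAVA 1.8 and edgeR 3.20.7. The gene annotation, strand and multi-mapping settings were not stated in the sources used here. Genes that overlap, lie antisense or are near copies may therefore share reads. Each column's values were whole multiples of a step (100% within 0.01 reads), which gave the reads behind them. Reads carry no molecular identifiers, so depth covers counting error only.

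The tests were limma 3.58.1 with trend in R 4.3.3 on log2(CPM + 1), with a pseudocount of 1, 3 groups in 1 fit, and the contrasts mutant mean minus Mx and NPMc_Flt3ITD minus Flt3ITD. Residual degrees of freedom were 3, or 8.67 moderated, and p-values were adjusted over all 12657 genes (5340 removed by the 1 CPM filter). The fit was also run on simulated libraries with planted changes, which had no replicate effect and no difference between the mutants. That run does not measure how reliable the calls here are. The members and gene lists were chosen with earlier results of these data known, so a list's direction is not independent evidence, and lists are described by counts and medians only. Named genes were the 10 largest shared rises and falls with at least 5 CPM on the higher side, up to 4 shared members with the smallest p of each list, up to 5 shared genes each way between the mutants, and Flt3, Npm1, Mecom, Cdkn1c, Cdk6, Mki67, Socs2 and Tgfb1. Others, such as Elane, Kit, Mt1, Fam132a, Gdf3, Nudt11 and the marker genes, were chosen after their values were seen.

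Groups share replicate numbers. Across genes, libraries with the same number deviated together from their group means. The correlations were 0.316 between NPMc_Flt3ITD and Mx, 0.259 between Flt3ITD and Mx and 0.341 between NPMc_Flt3ITD and Flt3ITD. The numbers were therefore taken to pair the libraries in the replicate block. The main fit, which gave the 288 changed and 285 shared genes, left this pairing out. What the numbers stand for is not in the labels. Alternatives were other pseudocounts, filters and scalings, edgeR 4.0.16 and DESeq2 1.42.0 on the recovered reads, the replicate block, a fit of 2 groups only (mutant and Mx), and each library left out in turn. Some genes are not reported here.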

Additional observations from a re-analysis of the deposited data

Results flagged for a closer look

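Each gene here changed against Mx and also differed between the mutant groups in a test of that difference (limma adjusted p under 0.05), so its effect against Mx was not of the same size in both genotypes. The log2 differences, NPMc_Flt3ITD minus Flt3ITD, were positive for Akr1c12 (2.86), Cyp11a1 (2.55), Pdgfrb (2.52), Clec2i (2.43), Cpa3 (1.89), Osm (1.74), Lat2 (1.51), Sik1 (1.43), Rgs1 (1.42) and Cytip (0.95). They were negative for Mt1 (-2.98), Gdf3 (-2.73), Grb10 (-2.04), Gbp6 (-1.99), Fam132a (-1.92), Tfrc (-1.24), Srm (-1.21), Alad (-1.20) and Cdc6 (-1.13). Rgs1, a regulator of G-protein signalling, was the most abundant of these in Mx, with 940.9 and 701 CPM in NPMc_Flt3ITD, 271 and 341 in Flt3ITD, against 1129 and 1077 CPM in Mx. Cyp11a1, the cholesterol side-chain cleavage enzyme of steroid synthesis, had 14.8 and 15.2 CPM in NPMc_Flt3ITD, 2.63 and 1.05 in Flt3ITD, against 0.975 and 0.565 CPM in Mx. Clec2i, a C-type lectin-related ligand, had 18.4 and 23.1 CPM in NPMc_Flt3ITD, 3.55 and 2.57 in Flt3ITD, against 0.75 and 2.5 CPM in Mx, so Flt3ITD replicate 2 cleared Mx replicate 2 only narrowly. Cytip, a regulator of leukocyte adhesion, had 90.7 and 96.6 CPM in NPMc_Flt3ITD, 50.3 and 45.8 in Flt3ITD, against 134.5 and 134.3 CPM in Mx.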

How the results depend on the processing

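Of the 288 changed genes, the count stayed within 1.5 times under 7 settings: 259 and 331 with pseudocounts of 0.5 and 5, 242 with a 5 CPM filter, 386 and 292 with other scalings, 200 with edgeR and 269 without Flt3ITD replicate 2. It was 60 with no filter on low values, 892 with DESeq2, 1402 with the replicate block, 70 with 2 groups only and 15 to 131 with another library left out (lowest without Mx replicate 1). Genes apart from Mx by position numbered 2415 to 3467 under other filters and scalings, against 2915, and 3436 to 5668 with 1 library left out, where fewer libraries make the criterion easier to meet. The 19 changed genes that differed between the mutants were 35 with a pseudocount of 5, 0 with no filter (limma, where 2620 genes had an unadjusted p under 0.05 against Mx), 12 with edgeR, 218 with DESeq2, 395 with the replicate block and 2 to 21 with 1 library left out. Of 72 named genes, 53 lost their call without Mx replicate 1, 40 without Mx replicate 2, 8 to 30 without a mutant library, 45 with no filter and 31 with 2 groups only, but at most 7 under each other setting. Flt3, Npm1, Cdkn1c, Cdk6, Mki67 and Tgfb1, which are among the 72, did not pass in the main fit and so had no call to lose. The direction turned only for Tgfb1, which never passed, at -0.056 without Mx replicate 1 and up to 0.57 without Mx replicate 2. Where not stated, the cause was not tested. With 2 libraries a group, genes that miss the threshold are not shown to be unchanged.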

Other observations

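Guanylate-binding proteins, interferon-induced GTPases of cell-autonomous defence, held several of the falls outside the gene lists; this family was chosen after its values were seen. Of 10 tested Gbp genes 4 fell (Gbp4, Gbp6, Gbp8 and Gbp9), against 1.66% of all tested genes, and none rose. In all mutants 6 lay below both Mx libraries, against 13.3% of all tested genes. The median log2 change was -1.46. Gbp8 had 1.68 and 4.02 CPM in NPMc_Flt3ITD, 5.97 and 6.97 in Flt3ITD, against 22.3 and 20.8 CPM in Mx. Gbp9 had 0.785 and 2.05 CPM in NPMc_Flt3ITD, 5.65 and 2.31 in Flt3ITD, against 14.9 and 16.6 CPM in Mx. In both genes NPMc_Flt3ITD was the lowest group. Since Gbp genes are near-identical in part, reads may be split among them.

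Genes of WNT signalling were also among the falls, again picked after their values were known. Of 8 tested Fzd and Sfrp genes 2 fell, the receptor gene Fzd4 and the secreted antagonist gene Sfrp1, against 1.66% of all tested genes. In all mutants 3 of the 8 lay below both Mx libraries, against 13.3% of all tested genes. Sfrp1 had 0.486 and 0.0578 CPM in NPMc_Flt3ITD, 0.591 and 1.46 in Flt3ITD, against 12.6 and 6.69 CPM in Mx. Fzd4 had 1.87 and 1.39 CPM in NPMc_Flt3ITD, 0 and 0.76 in Flt3ITD, against 10.1 and 7.02 CPM in Mx. Wls, which escorts WNT ligands to the cell surface, fell at higher levels, with 98.0 and 93.2 CPM in NPMc_Flt3ITD, 71.6 and 65.6 in Flt3ITD, against 156.5 and 142 CPM in Mx. Gimap6, a GTPase of immune cells, had 166 and 174 CPM in NPMc_Flt3ITD, 169.5 and 164 in Flt3ITD, against 388 and 334 CPM in Mx, the mutants being close to one another. Among 16 tested C-type lectin genes 3 rose (Clec10a, Clec2i and Clec4d) and 1 fell (Clec1a), against 0.616% and 1.66% of all tested genes. In all mutants 8 lay above and 2 below both Mx libraries, against 9.73% and 13.3% of all tested genes.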
